A study of Bos taurus with 3 samples.

Results

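The genes described here, *GRO1*, *CXCL2*, *CXCL3*, *CXCL5*, *CXCL8* and *CCL20*, encode secreted chemokines, and they make up 6 of the 27270 genes in the count matrices. They were chosen by symbol, as the neutrophil-attracting chemokines and CCL20 that earlier results from these cells had placed in the epithelium, so their levels are given as a description without a test. The cells came from the ventral sac of the rumen, the largest forestomach of cattle, of 3 newborn (NB) Holstein calves taken on the first day of life. Each calf gave one droplet library of 3' transcript ends, made from tissue without its outer muscle that had been digested with EDTA, trypsin and then a mixture of collagenase, dispase, hyaluronidase and DNase. No treatment or genotype separates the calves, and the adult cattle of the study were not analysed here. The 3 libraries are therefore one group, and each value below is a level within a calf or its spread over calves.

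Chemokines guide leukocytes along a concentration gradient. GRO1 (the bovine counterpart of CXCL1), CXCL2, CXCL3, CXCL5 and CXCL8 are CXC chemokines that act through the receptors CXCR1 and CXCR2 on neutrophils, whereas CCL20 acts through CCR6, which is found on dendritic cells and on lymphocytes of the interleukin-17 type. In epithelium, endothelium and myeloid cells, these genes are known targets of the transcription factor NF-κB, which is activated by interleukin-1, TNF and microbial products. In the RefSeq annotation of the assembly ARS-UCD2.0, *CXCL8*, *CXCL5*, *CXCL2*, *CXCL3* and *GRO1* lie in this order on chromosome 6, and *CCL20* lies on chromosome 2. *GRO1*, *CXCL2* and *CXCL3* are close paralogs, so reads could have been assigned to the wrong copy or dropped, and the split of counts among them is uncertain.

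After filtering to barcodes with 500 to 4000 genes and removal of scored doublets, 4695, 9746 and 9601 cells were kept in calves 1, 2 and 3, with a median of 10171, 6457 and 7385 UMIs (distinct transcript molecules) per cell, from libraries of 82263092, 89803289 and 106145091 UMIs. Clustering without the 6 genes, with clusters named from marker lists as resembling a cell type, gave 21102 epithelial cells, 1332 endothelial cells, 464 fibroblasts, 319 mural cells (smooth muscle and pericytes), 425 myeloid cells and 310 lymphocytes. Calf 1 held few non-epithelial cells, with 77 endothelial cells, 16 fibroblasts and 6 myeloid cells, so its values for those classes rest on little. The classes were named from these lists, so a high sum in its own class is no check of a name. The 10 endothelial markers summed to 69.3 to 83.2 UMIs per 10000 in endothelial cells and to 0.0753 to 0.113 in epithelial cells. The 5 pan-leukocyte markers summed to 37.8 to 45.8 in myeloid cells and 0.00416 to 0.0390 in epithelial cells. Other sets were less clean. The 11 epithelial markers summed to 175 to 236 in epithelial cells over calves, but also to 12.8 to 175 in mural cells, 7.21 to 110 in lymphocytes and 14.2 to 68.1 in fibroblasts. The 10 fibroblast markers summed to 549 to 765 in fibroblasts and 26.8 to 33.5 in endothelial cells. Different calves shared 21, 29 and 37 cell barcodes pairwise. A level is the number of UMIs of a gene for every 10000 UMIs in all cells of one class and calf, and a share of cells was taken after thinning each cell at random to 2000 UMIs.

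The genes did not form one epithelial group. *CXCL3* and *GRO1* reached their highest class levels outside the epithelium, in endothelial and myeloid cells respectively, *CXCL8* was a myeloid transcript that was close to absent from epithelial cells, and *CCL20* was the gene whose UMIs lay most completely in the epithelium. *CXCL2* and *CXCL5* were low in every class, apart from *CXCL2* in myeloid cells. Epithelial cells, 97.6, 89.9 and 80.8% of the cells of calves 1, 2 and 3, held most UMIs of *CCL20*, *CXCL2* and *GRO1* in 3 of 3 calves. For *GRO1* that part (84.7, 56.5 and 53.4%) was below the epithelial share of cells in each calf. For *CXCL2* (100, 87.0 and 72.0%) it was below in calves 2 and 3. Only for *CCL20* was it above in 3 of 3 calves. By share of UMIs, the name of an epithelial chemokine group thus held for *CCL20* alone, and least for *CXCL8*.

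**Figure D1:**
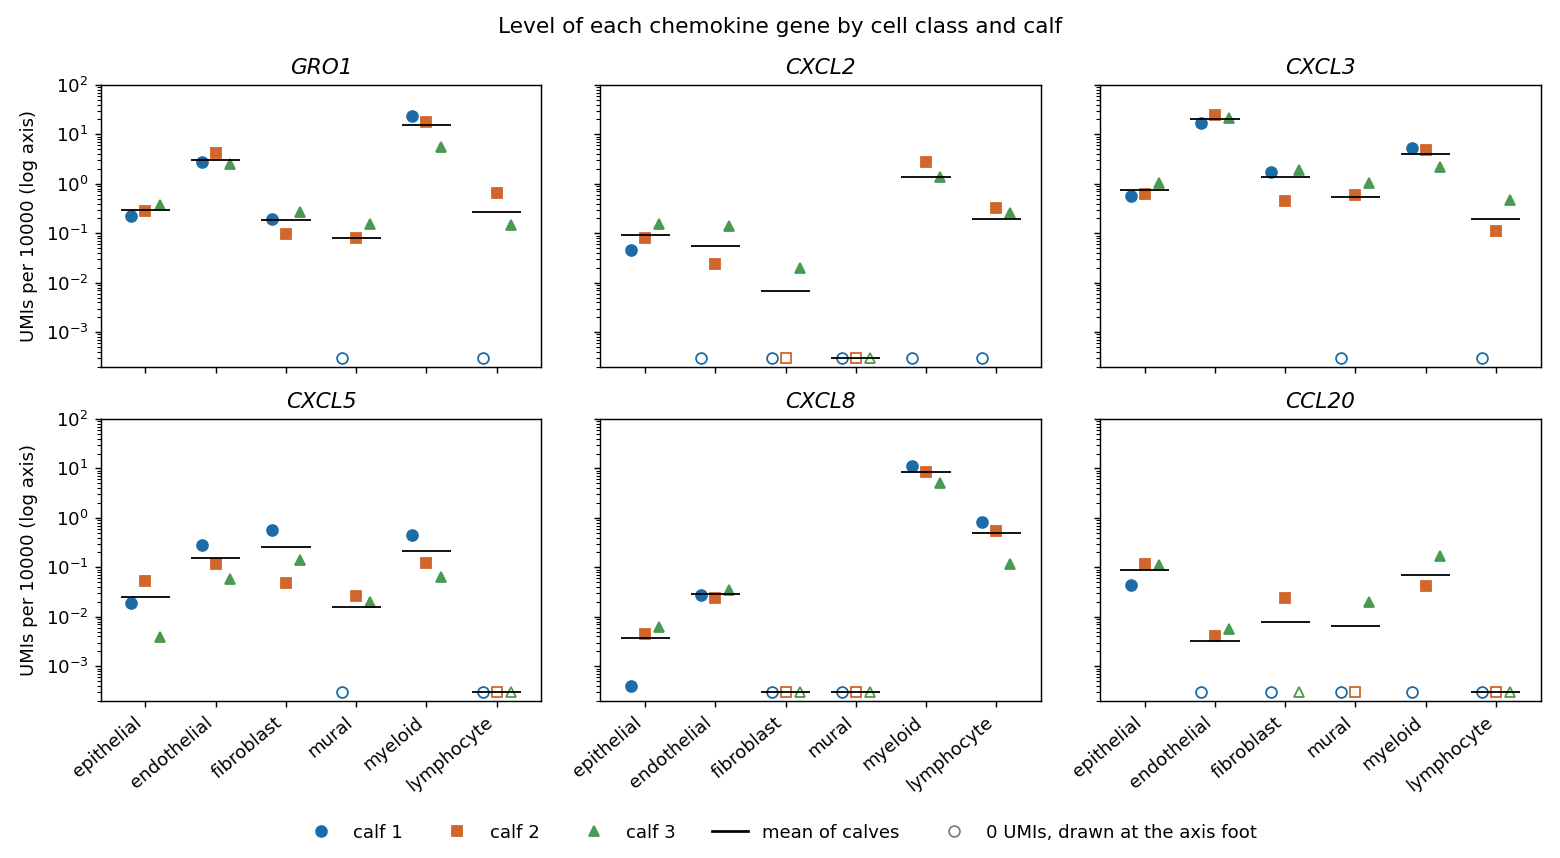
Level of each chemokine gene (UMIs per 10000 on a log axis) in 6 cell classes, one point per calf, with the mean of the 3 calves as a line and open points for 0 UMIs. *CXCL3* lies between 16.8 and 24.4 in endothelial cells against 0.555 to 1.03 in epithelial cells, and *CXCL8* between 5.02 and 11.3 in myeloid cells against at most 0.00616 in epithelial cells.

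*CXCL3*, a ligand of CXCR2, had the highest level of the 6 in epithelial cells on this scale, which counts transcript ends and is not divided by gene length, at 0.555, 0.636 and 1.03 UMIs per 10000 in calves 1, 2 and 3 (0.740 ± 0.254, SD, n = 3 calves). In endothelial cells it stood at 16.8, 24.4 and 21.3 (20.8 ± 3.79, SD, n = 3 calves). The lowest endothelial value was above the highest epithelial value, so the calves did not overlap between these classes. Fibroblasts held 1.73, 0.452 and 1.91 UMIs per 10000, mural cells 0, 0.589 and 1.05, and myeloid cells 5.21, 4.83 and 2.18. After thinning, 6.41%, 5.96% and 10.2% of epithelial cells had a *CXCL3* UMI (95% Clopper-Pearson interval for calf 3, 9.57 to 10.9%), against 67.6%, 60.7% and 70.0% of endothelial cells (66.1 to 73.6% in calf 3). The far more numerous epithelial cells held 81.5%, 40.7% and 46.1% of all *CXCL3* UMIs, while endothelial cells, which made up 1.64%, 5.73% and 7.26% of the cells, held 17.6%, 57.7% and 49.1%. The intervals cover counting error only.

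*GRO1* followed *CXCL3* in the epithelium at a lower level, with 0.223, 0.284 and 0.380 UMIs per 10000 (0.296 ± 0.0792, SD, n = 3 calves). Endothelial cells held 2.70, 4.12 and 2.48 and myeloid cells 24.0, 17.5 and 5.59, the latter from 6, 40 and 379 cells. Myeloid levels were above endothelial levels, and endothelial levels above epithelial levels, in each of the 3 calves. In fibroblasts, mural cells and lymphocytes *GRO1* stayed at or below 0.662. The thinned share of epithelial cells with *GRO1* was 3.06%, 3.23% and 4.89%.

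*CXCL2*, a close paralog of *CXCL3*, had 0.0452, 0.0798 and 0.157 UMIs per 10000 in epithelial cells (0.0939 ± 0.0572, SD, n = 3 calves). Its endothelial level was 0, 0.0244 and 0.142. Only in calf 2 was the endothelial level below the epithelial one beyond counting error, since the 0 of calf 1 allows up to 0.0836 and the interval of calf 3 (0.106 to 0.187) holds the epithelial value. In myeloid cells it reached 2.77 and 1.39 in calves 2 and 3, and no UMI was found in the 6 myeloid cells of calf 1. *CXCL5*, another CXCR2 ligand, had the largest SD relative to its mean over calves of the 6 in epithelial cells. Epithelial cells held 97, 346 and 26 *CXCL5* UMIs in calves 1, 2 and 3, or 0.0192, 0.0521 and 0.00381 per 10000 (0.0250 ± 0.0247, SD, n = 3 calves), and calf 3 was lowest although it was highest for *CXCL3*, *GRO1* and *CXCL2*. Endothelial *CXCL5* levels were 0.279, 0.118 and 0.0569, and fibroblast levels 0.577, 0.0476 and 0.142, from 3, 2 and 7 fibroblast UMIs.

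*CXCL8*, encoding interleukin-8, gave 2, 30 and 42 UMIs in all epithelial cells of calves 1, 2 and 3, a level of 0.000396, 0.00452 and 0.00616 per 10000. The value of calf 1 was below the 0.000594 that a count of 3 UMIs stands for. Myeloid cells held 50, 207 and 1197 *CXCL8* UMIs, or 11.3, 8.55 and 5.02 per 10000 (8.30 ± 3.16, SD, n = 3 calves), which was 92.6%, 82.1% and 94.7% of the *CXCL8* UMIs of each calf. After thinning, *CXCL8* was seen in 0%, 0.0703% and 0.0789% of epithelial cells. In endothelial cells, the share was 0%, 0.202% and 0.657%, and in lymphocytes 0%, 5.88% and 0.957%, of 2, 17 and 209 cells. The epithelial share was at or below that of endothelial cells and lymphocytes in each calf, from 1 and 4 endothelial cells and 1 and 2 lymphocytes with *CXCL8* in calves 2 and 3. Before thinning, 15 epithelial cells of calf 2 had *CXCL8*, 5 of them with 2 to 9 UMIs, and whether these few UMIs came from the cells or from free RNA was not tested.

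*CCL20*, the ligand of CCR6, was at 0.0448, 0.115 and 0.110 UMIs per 10000 in epithelial cells (0.0902 ± 0.0394, SD, n = 3 calves). Endothelial cells of all calves together gave 3 UMIs, fibroblasts 1, mural cells 1 and lymphocytes 0. A count of 0 in the lymphocytes of calf 3 allows a level of up to 0.0345 per 10000, and in calves 1 and 2, with 8 and 27 lymphocytes, it bounds the level only loosely. Epithelial cells held 100%, 99.6% and 94.4% of the *CCL20* UMIs. Most of the rest in calf 3 was myeloid, with 41 UMIs in 6 cells. By level, the myeloid cells of that calf stood at 0.172 UMIs per 10000 (95% Poisson interval 0.123 to 0.233), above its epithelial cells (0.103 to 0.119), while calves 1 and 2 gave 0 and 1 myeloid UMI.

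**Figure D2:**
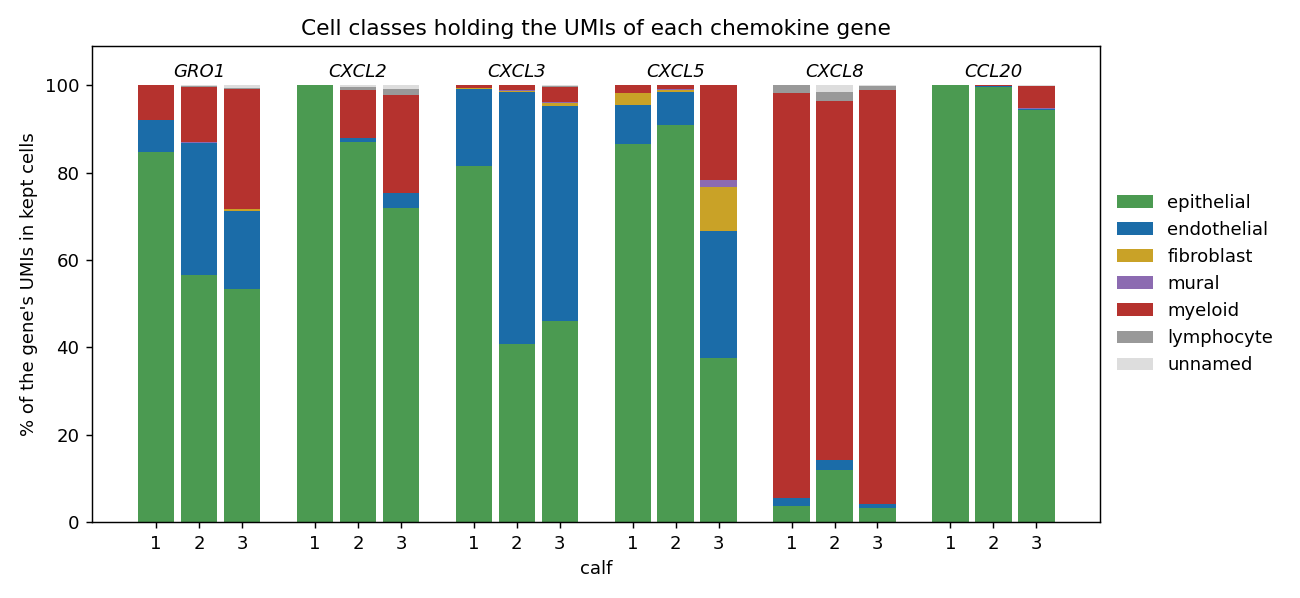
Share of each gene's UMIs (percent of its UMIs in kept cells) held by each cell class, one bar per calf. Epithelial cells hold 94.4 to 100% of *CCL20* and 3.32 to 11.9% of *CXCL8*, and endothelial cells hold 49.1 to 57.7% of *CXCL3* in calves 2 and 3.

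UMIs can reach a droplet as free RNA. Median depth was 7650 UMIs per epithelial cell, 3931 per endothelial cell, 1876 per fibroblast, 2420 per mural cell and 2525 per lymphocyte, so shares were compared after thinning. In mural cells, the thinned share with *CXCL3* was 8.05% and 7.87% in calves 2 and 3 (0 of 5 cells in calf 1), against a mean of 7.54% in epithelial cells. In lymphocytes, the mean share over calves was 1.28% for *CXCL3*, 2.60% for *GRO1*, 1.12% for *CXCL2* and 0% for *CCL20*, against epithelial shares of 3.73% for *GRO1*, 1.13% for *CXCL2* and 0.768% for *CCL20*. Fibroblasts reached 13.8% for *CXCL3*, but only 41.4% of them were deep enough to be thinned, so this share describes the deeper fibroblasts. In calf 3 it was 17.8% of 107 thinned fibroblasts, against 11.2% of all 224 before thinning. The lymphocyte means rest on 2, 17 and 209 thinned cells of calves 1, 2 and 3, and the *GRO1* mean in part on 1 of 17 cells in calf 2. In calf 3, 3.35% of lymphocytes (95% Clopper-Pearson interval 1.36 to 6.78%) and 1.95% of epithelial cells had a *CXCL2* UMI. The few lymphocytes of calves 1 and 2 had none and allow no comparison. The part of free RNA in single UMIs was not tested. Cells with many UMIs were also present: 23, 41 and 55 epithelial cells of calves 1, 2 and 3 held 10 or more *GRO1* UMIs, 85, 115 and 202 held 10 or more of *CXCL3*, 4, 11 and 27 of *CXCL2*, and 6, 21 and 20 of *CCL20*. No epithelial cell held 10 or more of *CXCL8*, and its highest count was 7.

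The ratio of *GRO1* to *CXCL3* differed between epithelial, endothelial and myeloid cells within each calf. For every 100 *CXCL3* UMIs, epithelial cells held 40.2, 44.7 and 36.9 *GRO1* UMIs, endothelial cells 16.1, 16.9 and 11.7, and myeloid cells 461, 362 and 257. These 3 ranges did not overlap. Fibroblasts, at 11.1, 21.1 and 13.8, and mural cells, at 13.6 and 14.8 in calves 2 and 3, overlapped the endothelial range, from few *GRO1* UMIs.

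Within the endothelium, *CXCL3* was highest in the cluster led by *FGL1*, *EBD* and *ACKR1*, the last an atypical chemokine receptor of venules that binds CXC chemokines without signalling. There it stood at 43.0, 57.5 and 42.6 UMIs per 10000 in 10, 88 and 69 cells. The cluster led by *PRSS23*, *THBS1* and *RGCC*, which also had *PLVAP* among its leading genes, held 14.8, 20.3 and 19.6, and the one with *HEY1* and *GJA4*, known from arteries, held 9.62, 12.2 and 20.0. *GRO1* had the same leading cluster, at 6.03, 9.62 and 5.84 UMIs per 10000 against at most 4.01 in the other 2. *ACKR1* itself was at 6.59 per 10000 in that cluster and at 0.828 and 0.0125 in those 2. A small endothelial cluster of 12 cells had *KRT4*, *COL17A1* and other epithelial genes among its leading genes and a median of 9912 UMIs per cell, and held 9.74 to 21.2 *CXCL3* UMIs per 10000.

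Among myeloid cells, a cluster of 36 cells led by *FCN1*, *S100A9* and *HP*, genes of monocytes and neutrophils, held the highest *GRO1* and *CXCL3* levels in each calf. Its *GRO1* level was 34.3, 83.1 and 74.0 UMIs per 10000 in the 3, 8 and 25 cells of calves 1, 2 and 3, its *CXCL8* level 13.9, 11.8 and 48.5, its *CXCL3* level 10.7, 15.4 and 14.0, and its *CXCL2* level 0, 15.0 and 27.6. The same cells had *CD14* in 26, *LYZ* in 26 and *IL1B* in 24 of 36. The neutrophil receptor genes were sparse there, with *CXCR1* in 4 cells and *CSF3R* in 8, and the markers did not settle whether these are monocytes or neutrophils. Macrophage-like cells with *C1QB* and *C1QC* among their leading genes had *CXCL8* at 9.99 and 10.2 and *GRO1* at 8.66 and 7.17 in the 13 and 65 cells of calves 2 and 3, and in calf 1 the 2 such cells had a *CXCL8* level of 16.6, above that of the *FCN1* cluster. Cells led by *FCER1A* and with *CD1E*, genes of dendritic cells, had lower levels, with *CXCL8* at 7.39 and 2.79 and *GRO1* at 1.76 and 2.57. Without the *FCN1* cluster, the mean myeloid level over calves was 7.23 for *GRO1* instead of 15.7, 1.49 for *CXCL3* instead of 4.07, 0.270 for *CXCL2* instead of 1.39 and 6.78 for *CXCL8* instead of 8.30.

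**Figure D3:**
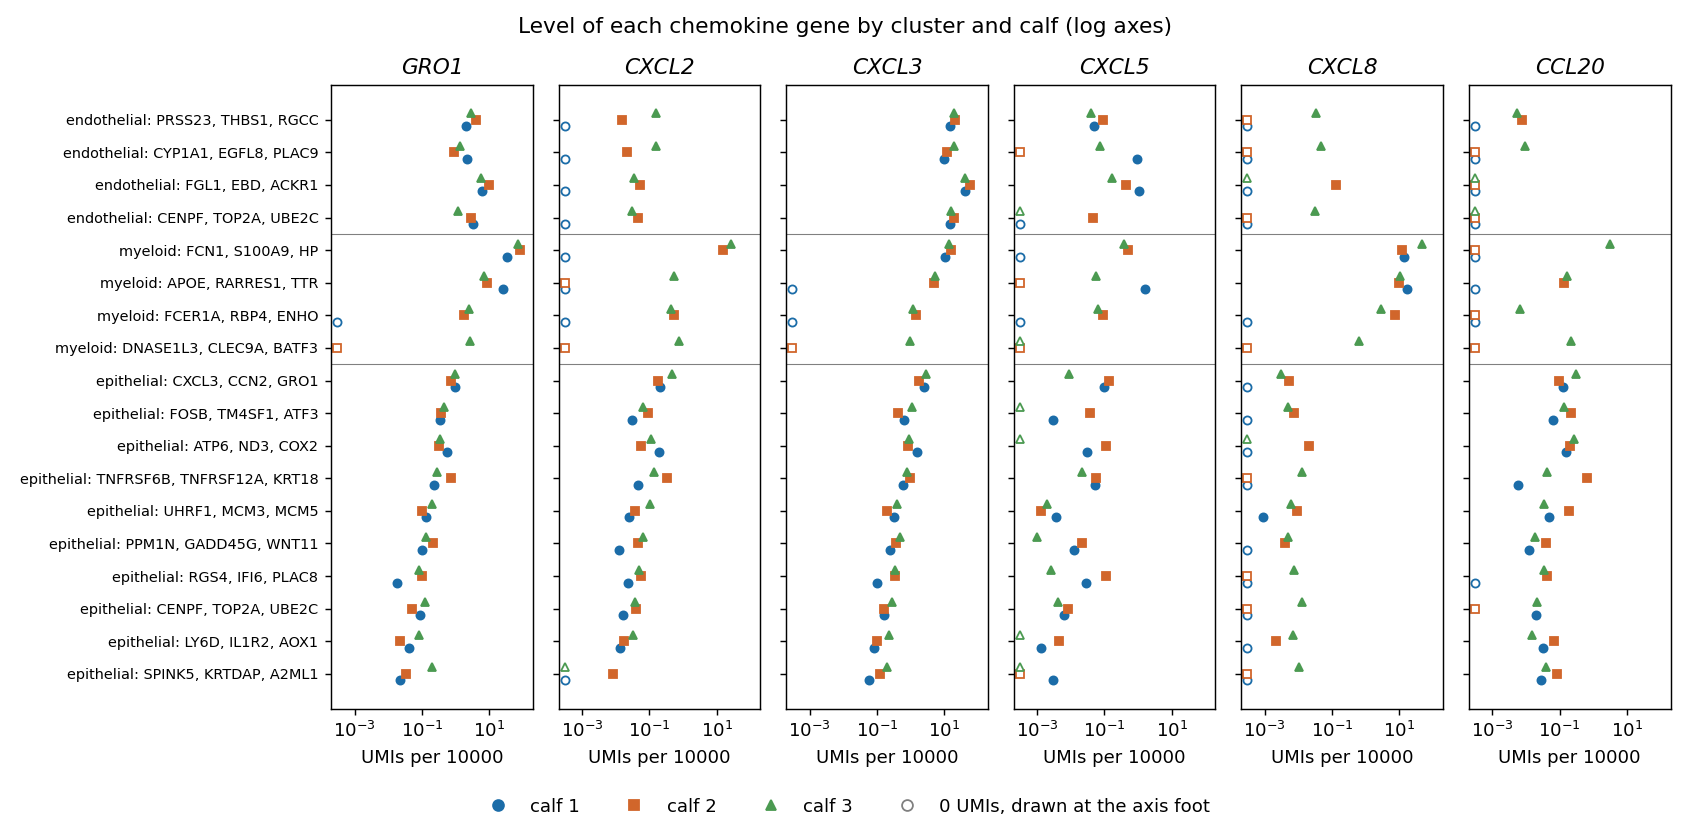
Level of each chemokine gene (UMIs per 10000, log axes) in endothelial, myeloid and epithelial clusters named by their leading genes, one point per calf. *CXCL3* reaches 42.6 to 57.5 in the endothelial cluster with *ACKR1*, and *CXCL8* reaches 48.5 in the myeloid cluster led by *FCN1* in calf 3.

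Among the epithelial cells, one cluster of 5045 cells carried most UMIs of *GRO1*, *CXCL2*, *CXCL3* and *CXCL5* in each calf. Of the basal, suprabasal and cycling lists it scored highest on the basal one. The 7 basal markers nevertheless summed to only 138 to 162 UMIs per 10000 there, against 170 to 204 in all epithelial cells. The genes were not used for clustering, but *CXCL3* and *GRO1* led the cluster, together with *CCN2*, *RGS4*, *IRF1* and *DCN*, the last better known from fibroblasts. *CXCL3* stood at 2.58, 1.84 and 2.80 UMIs per 10000 there, and *GRO1* at 0.944, 0.729 and 0.996. The cluster held 15.0%, 25.7% and 27.2% of the epithelial cells and 60.3%, 65.9% and 63.5% of their *CXCL3* UMIs. For *CCL20*, its part was uneven, at 36.7%, 19.2% and 66.8% of the epithelial UMIs. In calf 2, a cluster led by *TNFRSF6B* and *TNFRSF12A* had the higher *CCL20* level, at 0.678 UMIs per 10000 against 0.00573 and 0.0429 in calves 1 and 3. That level rests on 87 UMIs, 65 of them in 1 cell. *CXCL3* in the cluster led by mitochondrial genes was at 1.57, 0.815 and 0.875, with a median of 2701 UMIs per cell, and in the cluster led by *FOSB*, *TM4SF1* and *ATF3*, at 0.646, 0.433 and 1.11. *CXCL3* was low in suprabasal-like cells led by *SPINK5* and *KRTDAP*, at 0.0577, 0.121 and 0.202.

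Few cells carried the transcripts. The top 1% of epithelial cells held 34.8%, 41.6% and 29.9% of the *CXCL3* UMIs of calves 1, 2 and 3, and 96.5%, 97.5% and 82.3% of the *CCL20* UMIs. In calf 2, a single cell held 84 *CCL20* UMIs of 766. After thinning, 9.08%, 9.16% and 14.4% of epithelial cells had a UMI of any of the 6 genes, against 69.1%, 64.4% and 72.9% of endothelial cells.

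The genes were found together in the same epithelial cells more often than independent draws would give. *GRO1* and *CXCL3* were both present in 59, 108 and 162 thinned cells of calves 1, 2 and 3, against 8.71, 16.5 and 38.1 under independence, and 43.4%, 39.1% and 43.5% of cells with *GRO1* also had *CXCL3*. *CXCL2* and *CXCL3* were together in 110 cells against 21.1, *GRO1* and *CXCL2* in 80 against 10.3, *GRO1* and *CCL20* in 52 against 6.80, and *CXCL3* and *CCL20* in 62 against 13.7. The Pearson correlation over cells was modest, at 0.309 to 0.367 per calf for *GRO1* and *CXCL3* and 0.0727 to 0.192 for *CXCL3* and *CCL20*. Part of this lay between clusters: inside the *CXCL3*-led cluster alone, the ratio of observed to independent was 2.63 for *GRO1* and *CXCL3* instead of 5.20, and 2.16 for *CXCL3* and *CCL20* instead of 4.51. *CXCL8* was with *CXCL3* in 3 cells and with *CCL20* in 0 cells, too few to describe. In endothelial cells *GRO1* was nested in *CXCL3*: 93.3%, 88.9% and 90.0% of *GRO1* cells had *CXCL3*, which gave 277 cells with both against 203 under independence (Pearson correlation 0.379 to 0.546 per calf). The cells of one calf share a library, so no p-value was taken from these values.

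**Figure D4:**
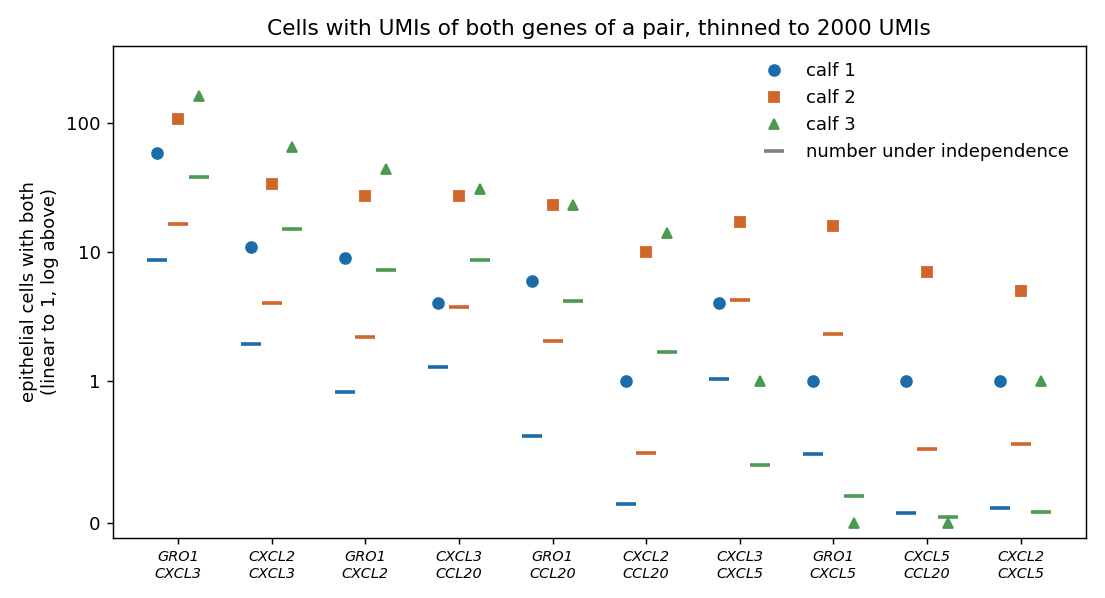
Number of epithelial cells with UMIs of both genes of a pair after thinning to 2000 UMIs (points, one per calf), with the number under independence as a dash, on an axis that is linear up to 1 and log above. *GRO1* and *CXCL3* were together in 59, 108 and 162 cells against 8.71, 16.5 and 38.1.

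Among 7378 genes seen in at least 1% of the thinned epithelial cells of each calf, those most like *CXCL3* were *IER3*, *JUNB* and *FOS*, whose lowest Pearson correlation over the 3 calves was 0.150, 0.148 and 0.144. *JUNB*, *IER3* and *ATF3* were closest to *GRO1* (0.117, 0.111 and 0.108), *IER3*, *RND1* and *JUNB* to *CXCL2* (0.0675, 0.0527 and 0.0525), and *NFKBIA*, *IER3* and *CEBPD* to *CCL20* (0.0570, 0.0460 and 0.0417). For *CXCL5*, no gene exceeded 0.0266, and *CXCL8* could not be described because no thinned epithelial cell of calf 1 held it. In the endothelial cells of calves 2 and 3, *C2CD4B*, *JUNB* and *ZFP36* were closest to *CXCL3* (0.450, 0.365 and 0.332) and *JUNB*, *NFKBIZ* and *C2CD4B* to *GRO1* (0.248, 0.218 and 0.213). These correlations are weak, come from sparse counts and share each cell's depth after thinning.

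Cells with the receptors were rare. *CXCR2* gave 2 UMIs and *CXCR1* 12 UMIs in all epithelial cells, and the myeloid cells held 5 *CXCR1* UMIs and 0 of *CXCR2*, so hardly any cell with a receptor for the CXC members was seen. *CCR6* was found in 35 of 425 myeloid cells, all of them from calf 3 and 29 of them in the cluster led by *FCER1A*, and in 8 of 310 lymphocytes. *ACKR1* was endothelial, at 0.725, 2.19 and 0.614 UMIs per 10000 in calves 1, 2 and 3.

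To ask which other genes accompanied the chemokines, epithelial cells with at least 2 UMIs over the 6 genes (171, 357 and 529 cells of calves 1, 2 and 3) were compared with cells with 0 (4044, 7755 and 6511 cells). Cells with a single UMI were left out, the 6 genes were not tested, and thinned counts were summed per calf and set. The sums were tested with edgeR (quasi-likelihood), each calf being a block of its positive and negative set. Of 9856 genes tested, 254 (2.58%) were higher and 276 (2.80%) lower in chemokine-positive cells at an adjusted p (Benjamini-Hochberg) under 0.05, or 5.38% in all. The median log2 difference over all genes was -0.00053. Positive cells had slightly fewer UMIs before thinning (a median of 9441, 6391 and 7456 against 10632, 6769 and 8005) and a lower mitochondrial share (a median of 4.23%, 4.82% and 4.72% against 5.46%, 5.72% and 5.80%), and 64.9%, 62.2% and 67.9% of them lay in the *CXCL3*-led cluster. The part of depth and mitochondrial share in the result was not tested. When negative cells were drawn to match the positive cells' clusters, 45 genes were higher and 9 lower, of 7221 tested (0.748% called), 49 of these 54 being among those called without the matching. The matching left 716, 2900 and 2179 negative cells in calves 1, 2 and 3, so a gene could also lose its call through lower counts. Without the block of sets by calf, edgeR called 0 genes, with 441 at an unadjusted p under 0.05, and DESeq2 with the block called 258.

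Of 17 listed genes of NF-κB feedback, 15 were tested in the positive cells, 7 were higher and 0 lower, and the median log2 difference was 0.79. *TNFAIP3*, which encodes the NF-κB inhibitor A20, stood at 23.1, 44.9 and 100.2 CPM (counts scaled by the size of the set) in the positive sets of calves 1, 2 and 3 and at 4.17, 5.97 and 16.7 in the negative sets. All 3 calves moved the same way, and the log2 difference was 2.65 ± 0.18 (SE, edgeR, adjusted p = 5.58e-08). *NFKBIA*, encoding the inhibitor IκBα, was at 387, 835 and 702 CPM against 112.3, 290.1 and 306 (log2 difference 1.46 ± 0.10, SE, edgeR, adjusted p = 4.12e-08). *NFKBIZ*, *BCL3*, *BIRC3*, *ZC3H12A* and *RELB* were also higher, by 0.98 to 1.33 on the log2 scale, *RELB* in 2 of 3 calves. With cluster makeup matched, 4 of the 12 listed genes tested were still higher, among them *TNFAIP3* at a log2 difference of 1.76 and *NFKBIA* at 0.92. *RELB* was not among the genes tested with this matching.

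Few other cytokine genes passed. Of 22 other chemokines listed, 6 were tested and 2 were higher. *CX3CL1*, a membrane-bound chemokine, was at 49.1, 72.7 and 70.1 CPM against 33.3, 27.2 and 40.7 (log2 difference 0.95 ± 0.16, SE, edgeR, adjusted p = 0.00124). *CXCL10*, which attracts activated T cells, was low in every set but higher in positive cells of 3 of 3 calves, at 10.3 ± 10.1 against 0.511 ± 0.599 CPM (SD, n = 3 calves; log2 difference 4.26 ± 0.47, SE, edgeR, adjusted p = 1.05e-05). *CCL2* was at 4.48 against 0.917 CPM on average and did not pass (edgeR, adjusted p = 0.0572). Among other inflammatory cytokines and enzymes, 7 of 18 were tested, and *IL6* (14.3 against 1.17 CPM) and *CSF1* (14.7 against 5.93 CPM) were higher. Of the interleukin-1 and TNF family, 7 of 18 were tested. *IL1A* was higher (5.94 against 1.24 CPM) and *IL1R2*, the decoy receptor of interleukin-1, was lower, at 83.8, 125 and 144 CPM against 140, 228 and 302 (log2 difference -0.95 ± 0.10, SE, edgeR, adjusted p = 9.94e-06). With matched clusters, *CX3CL1* stayed higher (log2 difference 0.78), and neither *IL1R2* (-0.24) nor *CSF1* (1.15) passed. *CXCL10*, *IL6* and *IL1A* were not tested with matched clusters, so whether their differences lay within clusters is not known. *TLR2* (log2 difference 2.95) and *CD14* (1.07), which is also a myeloid marker, were the 2 higher of 8 tested microbe-sensing genes. *CD14* did not pass with matched clusters, with DESeq2 or without any one of the 3 calves. *TLR2* was not tested with matched clusters and did not pass without calf 2. In the positive set of calf 1, *CXCL10*, *IL1A* and *TLR2* each stood at 2.89 CPM, which rests on very few UMIs in 171 thinned cells.

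Of the 19 genes of the interleukin-17 list, 7 were tested, 0 were higher, and *S100A8* and *S100A12*, which encode secreted calcium-binding proteins, were lower, with a median log2 difference of -0.01 over the list. *S100A12* was at 1018, 2293 and 836 CPM in positive cells and 4915, 4738 and 3030 in negative cells (log2 difference -1.69 ± 0.14, SE, edgeR, adjusted p = 3.18e-07). Matched for cluster makeup, neither passed, *S100A8* changed sign to 0.32 on the log2 scale, and *S100A9*, at 0.02 without matching, was higher at 1.16. *IL17A* and *IL17F* themselves were too low to be tested.

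**Figure D5:**
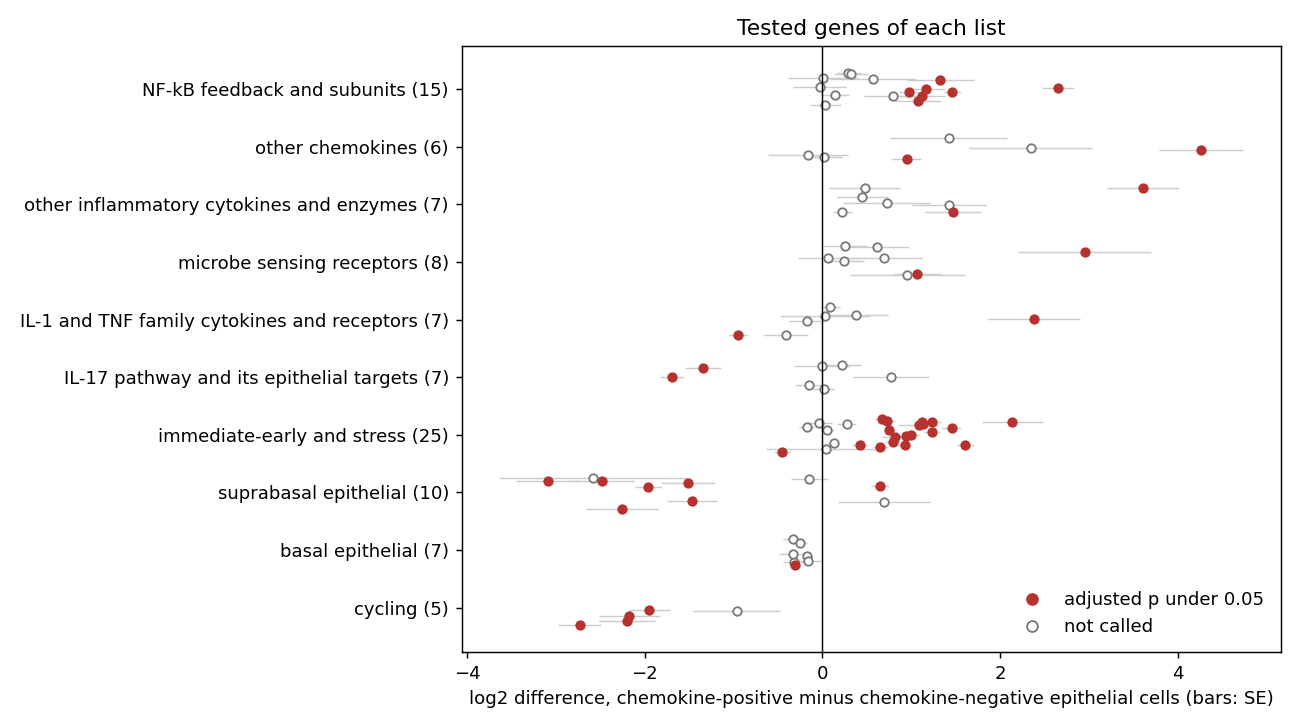
Log2 difference between chemokine-positive and chemokine-negative epithelial cells for the tested genes of each list (numbers in brackets, bars give SE), with filled points at an adjusted p under 0.05. NF-κB feedback and immediate-early genes lie to the right (7 of 15 and 18 of 25 higher), and cycling genes to the left (4 of 5 lower).

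Immediate-early and stress genes had the most calls of the lists, with 18 of 25 tested higher and 1 lower. *IER3* was at 2191, 1606 and 1659 CPM in positive cells against 609, 710 and 474 (log2 difference 1.61 ± 0.10, SE, edgeR, adjusted p = 4.12e-08), and *ATF3*, *EGR1*, *ZFP36*, *JUNB* and *FOS* were higher by 1.13 to 1.46 on the log2 scale. The heat-shock gene *HSPA1A* was lower by a log2 difference of -0.45. These genes are known to be induced within minutes, also by enzyme digestion of tissue, and the part of dissociation in this result was not tested. With matched clusters, 10 of the 24 tested were higher and 0 lower. Beyond the lists, the 10 largest rises at a mean of 20 CPM or more included *RND1* (log2 difference 1.88), *IRF1* (1.72), *HIST1H2AC* (1.64), *AREG* (1.49), *HBEGF* (1.48) and *BHLHE40* (1.40). *AREG* and *HBEGF* encode ligands of the EGF receptor.

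Of 10 suprabasal genes, 6 were lower in the positive cells, among them *KRT4* at 286, 582 and 61.9 CPM against 1947, 1702 and 198 (log2 difference -1.96 ± 0.15, SE, edgeR, adjusted p = 1.96e-07), *SPINK5* (-2.48) and *GJA1* (-3.09), while the tight junction gene *CLDN4* was higher (0.65) and 3 did not pass. Of 7 basal genes, 1 (*COL17A1*) was lower, by a log2 difference of -0.31. Of 5 cycling genes, 4 (*CENPF*, *UBE2C*, *MKI67* and *TOP2A*) were lower, by log2 differences of -2.73 to -1.95. Other large falls were in *FABP5* (-1.99), a fatty acid carrier, and *AHCYL2* (-1.92). With matched clusters, 0 of 3 cycling genes and 1 of 5 suprabasal genes tested were lower, *TOP2A* was at 0.01 and *KRTDAP* at 0.63, both opposite in sign to the unmatched values, and *KRT4* stayed lower at a log2 difference of -0.52.

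Markers of other cell types were compared between the same sets. The 10 endothelial markers summed to 14.6, 7.02 and 16.1 CPM in the positive sets of calves 1, 2 and 3, from 27 UMIs in all. In the negative sets they summed to 8.90, 10.7 and 10.4, so the positive set was higher in calves 1 and 3. The part of endothelial transcripts in the result was not tested. *CDH5* and *TIE1* were at 0 in the positive cells, and so were 4 of the 5 pan-leukocyte markers. The pan-leukocyte list was at only 0.124 to 4.22 CPM in the far larger negative sets, so a count of 0 says little. The fibroblast list was higher, at 512 to 975 CPM against 318 to 449, with *DCN* and *SPARC* passing the test and *PDGFRA* and *DPT* at 0, and its part in the result was not tested. The 9 mural markers summed to 16.1 to 37.9 CPM against 24.6 to 42.8, the 17 myeloid markers to 206 to 261 against 236 to 280, and the 9 lymphocyte markers to 1.89 to 14.0 against 11.3 to 19.5. The neutrophil list was lower, at 870 to 2086 against 3296 to 5103 CPM, a sum led by *S100A12*, with *CSF3R*, *CXCR1* and *CXCR2* at 0.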

How the data were processed

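Gene-by-barcode UMI counts of 3 newborn calves were used as deposited. Per the labels, the authors prepared 10x 3' libraries and used Cell Ranger 3.1.0 (submitters' processing notes), and the files hold unnormalised counts on the ARS-UCD1.2 annotation. The members and lists were chosen with earlier results of these data known. Barcodes were kept if they had 500 to 4000 genes, no more than 50000 UMIs and a mitochondrial share (13 genes) of up to 40%, and the top-scored simulated-doublet neighbours, 0.8% per 1000 barcodes, were removed (191, 908 and 879). Cells were clustered by Leiden (leidenalg 0.10.2) after principal components and Harmony alignment, without the 6 chemokine genes, and classes were named from fixed markers when at least 3 were detected. Levels are UMIs per 10000. Shares used cells thinned to 2000 UMIs, which left out 509 epithelial, 161 endothelial, 272 fibroblast, 100 mural, 22 myeloid and 82 lymphocyte cells. Intervals are Clopper-Pearson or exact Poisson at 95%, a count of 0 was bounded by 3 counts, and both cover counting error only.

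Epithelial sets were compared with edgeR 4.0.16 (filterByExpr, TMM, quasi-likelihood test, calf as block, threshold 0.05), with DESeq2 1.42.0 as an alternative. The sets of a calf are paired because they come from the same animal. In data simulated for this comparison on 9601 genes, 50.5% of genes changed by a log2 of 1 and 85.3% of those changed by 2 were recovered, with 2.99% false among the calls. The simulation used a fixed spread that was not estimated from these data and no difference in cluster makeup between the sets. Its rates therefore do not give the false share among the calls made here. Named genes were the 6 members, genes of the fixed lists, and the 10 largest rises and falls with an adjusted p under 0.05, the same direction in 3 of 3 calves and a mean of at least 20 CPM. Not every gene that met this rule is reported here. The 3 genes most like each member were named by the lowest Pearson correlation over calves, among genes in at least 1% of cells. *CXCL1*, *CXCL6*, *CCL7*, *IL11*, *IL17C*, *M-SAA3.2* and *TLR1* were listed but had no row of that symbol.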

Additional observations from a re-analysis of the deposited data

Results flagged for a closer look

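Barcodes outside the limits of 500 to 4000 genes were not used, and the 6 genes were present in them above the limit that a count of 0 allows. In barcodes with over 4000 genes, their summed level was 0.579, 1.08 and 1.78 UMIs per 10000 in calves 1, 2 and 3, from 1481, 653 and 3269 UMIs. In barcodes with under 500 genes, it was 0.297, 1.58 and 2.30, from 76, 312 and 147 UMIs. In kept epithelial cells the summed level was 0.888, 1.17 and 1.69. Calf 3 was highest in each set.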

How the results depend on the processing

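The level of each gene in epithelial cells moved by less than the spread between calves in all 54 alternatives run. For the other classes, 18 of 276 alternatives moved a level by more. Without doublet removal, endothelial *CXCL8* was 0.0230 and *CCL20* 0.0129, fibroblast *CXCL2* 0.0504 and *CXCL3* 0.525, mural *CXCL2* 0.00336, *CXCL3* 1.36 and *CXCL5* 0.190, and lymphocyte *CXCL8* 0.00568 UMIs per 10000. Without Harmony, fibroblast *CXCL3* was 0.378, mural *GRO1* 0.157, *CXCL2* 0.00475, *CXCL3* 1.45 and *CXCL5* 0.270, and lymphocyte *CXCL8* 0.0467. With classes set by marker UMIs, mural *CXCL5* was 0 and lymphocyte *CXCL8* 0.0158, and as a mean over cells fibroblast *GRO1* was 0.0935. Myeloid *CXCL3* was 1.49 without the *FCN1* cluster, an alternative chosen after seeing the data. The cause of these shifts was not tested.

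Shares of epithelial cells depend on depth by construction. Without thinning they were 8.53% (*GRO1*), 2.72% (*CXCL2*), 15.1% (*CXCL3*), 1.25% (*CXCL5*), 0.235% (*CXCL8*) and 1.54% (*CCL20*). At 1000 UMIs, *GRO1* was at 2.33% and *CXCL3* at 4.92%, and with 2 UMIs required the shares were 1.26% (*GRO1*), 0.429% (*CXCL2*), 3.29% (*CXCL3*), 0.00390% (*CXCL8*) and 0.336% (*CCL20*).

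In calf 3 alone, with 4 thinned *CXCL5* cells in the epithelium, 0 cells held both *GRO1* and *CXCL5* or both *CXCL5* and *CCL20*. The co-expression ratios of 10 pairs, pooled over calves, stayed above 1 in every alternative run. Inside the *CXCL3*-led cluster (chosen after seeing the data) they were 3.73 for *GRO1* and *CXCL2*, 2.63 for *GRO1* and *CXCL3*, 3.85 for *GRO1* and *CCL20*, 2.61 for *CXCL2* and *CXCL3*, 5.44 for *CXCL2* and *CXCL5*, 2.02 for *CXCL3* and *CXCL5* and 2.16 for *CXCL3* and *CCL20*. Without thinning they were 3.27 for *GRO1* and *CXCL3*, 3.94 for *CXCL2* and *CXCL5* and 2.81 for *CXCL3* and *CXCL5*, the latter pairs reaching 25.8 and 5.20 at 1000 UMIs.
Leaving out one calf gave 6.50 to 11.7 for *GRO1* and *CXCL2*, 4.72 to 6.63 for *GRO1* and *CXCL3*, 1.46 (without calf 2) to 6.42 for *GRO1* and *CXCL5*, 6.08 to 10.95 for *GRO1* and *CCL20* and 4.45 to 7.61 for *CXCL2* and *CXCL3*, all but the *CXCL5* pair being highest without calf 3.

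Counts of genes called were sensitive. Higher and lower genes numbered 122 and 136 with DESeq2, which gave 3822 genes no adjusted p, 513 and 478 with a gate (the UMIs that make a cell positive) of 1 UMI, 107 higher with a gate of 5 UMIs, 96 and 170 at 1000 UMIs, 1091 and 1150 without thinning, 21 and 4 with *CCL20* alone as the gate, 45 and 9 with matched clusters, and 597 lower without a filter on low counts. Without the replicate block, which drops the pairing of sets within a calf, edgeR called 0 and 0 genes, with 441 at an unadjusted p under 0.05 against 1648 with it, and DESeq2 called 258 with the block. Leaving out one calf gave 141 to 256 higher and 199 to 294 lower genes, and calves 1 and 3 each lowered the higher count by over 1.5 times (151 without calf 1 and 141 without calf 3). Of 1510 alternatives for 106 named genes, 1198 kept direction and call, 159 lost the call, 45 gained one, 5 changed sign with a call in at least 1 of the fits, and 103 changed sign with a call in neither. With a call, the sign changed for *S100A8* (0.32), *KRTDAP* (0.63) and *TOP2A* (0.0091) with matched clusters, and for *S100A9* with a gate of 1 UMI (-0.33) and without thinning (-0.42). A gate on *CXCL8* alone was not run, because calf 1 had no such cell. Sparse counts limit *CXCL5* and *CXCL8* in the epithelium, and 6 myeloid cells limit calf 1.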
